A study of Xenopus laevis with 3 samples.

Results

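The genes examined here encode the machinery that fuses transmitter-filled vesicles with the presynaptic membrane, together with the relatives of these genes that serve membrane traffic in other compartments. They were chosen by gene symbol: SNAP-25 family members, syntaxins, VAMPs, syntaxin binding proteins, NSF and its adaptors, synaptotagmins, synaptophysin and synaptogyrins, synapsins, complexins, neuroligins, synucleins and names that begin with rab3. This gave 54 genes with 97 Affymetrix probe sets (Xl-PSIDs), of 9240 genes with 15495 Xl-PSIDs that carry 1 gene symbol. The genes were split by their known roles into a synaptic class of 17 genes (31 Xl-PSIDs) and a general traffic class of 37 genes (66 Xl-PSIDs). Known roles do not settle every case: nsf, which also acts in synapses, was put in the general class. Moving such genes between the classes was not tried. The symbol pattern also took in 8 GTPases of the Rab30 to Rab39 names, a pair of Rab3 regulators and snap91, the clathrin adaptor AP180, which is no SNARE. The letters L and S after a symbol mark the homeologs, the gene copies that stem from the 2 parental genomes of this allotetraploid frog, and they were joined into 1 gene.

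In a synaptic terminal, a vesicle SNARE (VAMP, also called synaptobrevin) zips together with the plasma membrane SNAREs syntaxin and SNAP-25 into a helical bundle that pulls the membranes into contact. Synaptotagmin senses calcium, complexin holds and releases the assembled bundle, Munc18 proteins guide syntaxin, and NSF with its SNAP adaptors takes the spent bundle apart. This machinery serves the neurons that innervate the inner ear, while hair cells release glutamate at ribbon synapses with otoferlin as their calcium sensor.

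Inner ear tissue of juvenile Xenopus laevis, about 3 months old and bought from a commercial supplier, was profiled on 3 arrays that form 1 untreated group. Each array carried RNA pooled from several animals, 5, 5 and 6 for replicates 1, 2 and 3, with mean body weights of 9, 9.6 and 9.6 g. The labels name the tissue as inner ear with no cell type, so sensory patches, ganglion cells, nerve, supporting tissue and any adhering tissue contributed together. The larval stages were not analysed here, and no comparison between conditions was possible. Values are GCRMA intensities on the log2 scale, in arbitrary units, and detection of an Xl-PSID meant that its mean over the arrays reached 4, an intensity minimum taken from the study's methods. Levels of genes are not compared between Xl-PSIDs, because probes differ in how strongly they bind. Each difference given is thus between arrays within 1 Xl-PSID, apart from the 5′ to 3′ differences of control transcripts. Array medians were 7.57, 7.49 and 7.53, and Pearson's r between arrays ran from 0.994 to 0.995 across all features. Of 16 hair cell genes listed, 4 were matched and all 4 were detected (calb1, myo6, pvalb and ush1c), beside 80.2% of all genes.

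Most of these genes were detected in the juvenile inner ear. The mean reached 4 for 68 of 97 Xl-PSIDs (70.1%), beside 72.8% of all Xl-PSIDs with 1 symbol. At least 1 Xl-PSID was detected for 44 of 54 genes (81.5%), beside 80.2% of all genes, so both shares were near the background. With limma, tested one-sided against 4, the mean was higher for 65 Xl-PSIDs (67.0%) at a Benjamini-Hochberg adjusted p below 0.05; this share was 70.8% for all Xl-PSIDs with 1 symbol and 62.2% for all probe sets. These p-values measure the spread between the pools only. In the synaptic class 20 of 31 Xl-PSIDs and 13 of 17 genes were detected, and in the general class 48 of 66 and 31 of 37. Most members lay clear of the minimum, with 66 Xl-PSIDs above 4 on every array, 28 below it on every array and 3 on both sides of it. In all, 35 members had a mean of 10 or more and 21 a mean below 3. Shares of all Xl-PSIDs at these levels were not counted, so the levels are not read as particular to the members.

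The plasma membrane SNARE snap25, which supplies a pair of the helices of the bundle, was detected on all 3 of its Xl-PSIDs. On replicates 1, 2 and 3 that for snap25.L read 13.60, 13.29 and 12.99. For snap25.S, the Xl-PSID of higher mean read 13.05, 12.34 and 11.81, and the other read 10.81, 10.30 and 9.45. All 3 were thus highest on replicate 1 and lowest on replicate 3. Of the relatives used outside synapses, snap29, which acts in autophagosome fusion, was detected for both homeologs, with snap29.L at 11.73, 12.03 and 11.92 and snap29.S at 10.43, 10.78 and 10.74, both lowest on replicate 1. The Xl-PSID for snap23, the counterpart of snap25 in non-neuronal secretion, was not detected (2.29 ± 0.09, SD, n = 3), nor was that for snap47 (1.99 ± 0.00). Each of these genes has a single Xl-PSID here, so other parts of the transcripts were not measured.

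**Figure D1:**
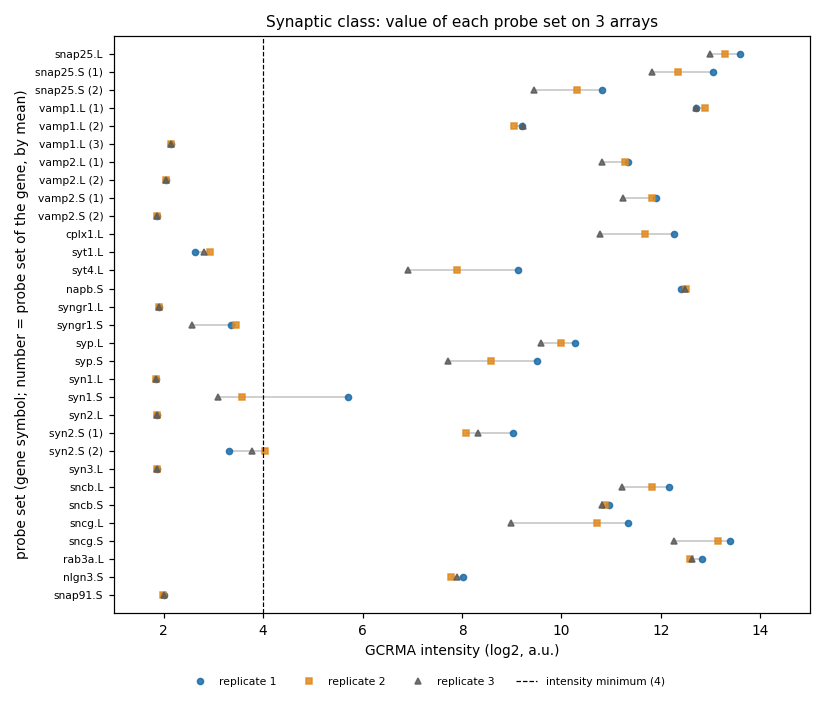
GCRMA intensity (log2, a.u.; horizontal axis) of each Xl-PSID of the synaptic class on each of the 3 arrays, with circles, squares and triangles for replicates 1, 2 and 3 and a dashed line at the intensity minimum of 4. The 11 Xl-PSIDs that are not detected lie near or left of the line, and most detected ones have replicate 1 furthest right.

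Vesicle SNAREs were represented by vamp1 and vamp2, the synaptobrevins of neurons. For vamp2, vamp2.L read 11.35, 11.28 and 10.82 on replicates 1, 2 and 3, and vamp2.S read 11.89, 11.83 and 11.23. Replicates 1 and 2 were close for both homeologs, and replicate 3 was lower. For vamp1 the Xl-PSID of highest mean read 12.71, 12.88 and 12.70, and a second read 9.21, 9.05 and 9.23, so neither had the order seen for vamp2. A further Xl-PSID for vamp1.L and 1 each for vamp2.L and vamp2.S lay at the floor of the scale, with means of 2.15, 2.05 and 1.87. The detection of these genes therefore depends on which Xl-PSID is read. The VAMPs of endosomes and lysosomes were also detected, vamp7 at 8.40 ± 0.33, vamp8.L at 12.56 ± 0.08 and vamp8.S at 10.16 ± 0.18, although a second Xl-PSID for vamp8.L was at 2.64 ± 0.09.

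The calcium and vesicle proteins that act on the bundle differed in detection. The Xl-PSID for syt1, the fast calcium sensor of central synapses, read 2.64, 2.94 and 2.82 and was not detected on any array. It is the only one for this gene here, so other parts of the transcript were not measured. Transcripts for syt4, a synaptotagmin that in mammals lacks a residue for calcium binding, read 9.13, 7.91 and 6.90, highest on replicate 1 and lowest on replicate 3. Its single Xl-PSID belongs to a class that can match several transcripts, and its limma call (adjusted p = 0.00845) was lost without replicate 2 (adjusted p = 0.0511). Complexin cplx1 read 12.27, 11.67 and 10.77 in the same order, so that replicate 1 exceeded replicate 2 by 0.60 and replicate 2 exceeded replicate 3 by 0.91. In the general class, syt11 read 8.48, 6.12 and 7.52, lowest on replicate 2, and its limma call (adjusted p = 0.0144) was lost without replicate 3 (adjusted p = 0.0977). Finally syt14, which in mammals does not bind calcium, varied little (7.31 ± 0.17).

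Among membrane proteins of the vesicle, synaptophysin (syp) was detected for both homeologs. On replicates 1, 2 and 3 syp.L read 10.28, 9.996 and 9.60, and syp.S read 9.51, 8.59 and 7.71. The order of the arrays was the same for both, with a range of 0.68 for syp.L and 1.80 for syp.S. Its relative syngr1, synaptogyrin of neurons, was not detected for L (1.90 ± 0.00) or S (3.13 ± 0.48), whereas syngr2, the widely expressed synaptogyrin, read 5.24, 4.90 and 4.77.

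Synapsins, phosphoproteins that hold vesicles in the reserve pool, were detected on 2 of 6 Xl-PSIDs. For syn1 the value of syn1.S was 5.70 on replicate 1 but 3.57 and 3.10 on replicates 2 and 3, so its mean of 4.13 rests on replicate 1 and limma did not pass it (adjusted p = 0.68). Its range of 2.60 was the widest of the members with a mean of 4 or more, and its values on replicates 2 and 3 lie below the minimum. For syn2, the detected Xl-PSID read 9.03, 8.08 and 8.33, highest on replicate 1, and a second for syn2.S lay just under the minimum at 3.31, 4.04 and 3.77. The Xl-PSIDs for syn1.L, syn2.L and syn3.L were at 1.85, 1.86 and 1.86 and varied over the arrays by no more than 0.0032.

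Synucleins, presynaptic proteins that bind curved vesicle membranes and of which sncg is known from peripheral sensory neurons of mammals, were detected on 4 of 4 Xl-PSIDs. On replicates 1, 2 and 3 sncg.L read 11.33, 10.71 and 8.98, and sncg.S read 13.40, 13.15 and 12.26. For sncb.L the values were 12.16, 11.81 and 11.23, and for sncb.S 10.95, 10.88 and 10.81. The 4 shared the same order of arrays, but the range was 0.14 for sncb.S and 2.35 for sncg.L. No Xl-PSID with 1 symbol was found under the name snca.

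The GTPase rab3a, which rides on synaptic vesicles, read 12.83, 12.58 and 12.62, with a range of 0.25. In the general class rab3d, known from secretory granules of exocrine and other cells, read 10.38, 10.23 and 9.95 for L, while rab3d.S lay across the minimum at 4.27, 4.41 and 3.57 and was not passed by limma (adjusted p = 0.582), although without replicate 3 it was (adjusted p = 0.0467). The single Xl-PSID for rab3b was not detected (3.07 ± 0.33). Rab3 regulators were detected on all 3 Xl-PSIDs, with rab3gap1, a subunit of the Rab3 GTPase activating protein, at 11.52 ± 0.16 and rab3ip, an exchange factor for Rab8, at 13.61 ± 0.09 (S) and 11.41 ± 0.08 (L). Of the 8 genes named in the Rab30 to Rab39 range, 6 were detected. These included rab38 (9.47 ± 0.35) and rab32 (4.87 ± 0.10), known for the transport of cargo to pigment granules, and rab30, a Golgi GTPase that read 7.81, 8.10 and 6.96, while rab33b and rab37 were below the minimum.

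Proteins that take SNARE bundles apart were detected for 4 of 4 genes. The ATPase nsf read 11.59, 11.09 and 11.37 on its Xl-PSID of highest mean, and a second for nsf.L was at 7.09 ± 0.14. Another lay under the minimum on every array at 3.90, 3.39 and 3.21, and that for nsf.S was at the floor (1.95 ± 0.00). The adaptor napb, the SNAP form of neurons, read 12.40, 12.51 and 12.48 and had the narrowest range of the detected synaptic members, at 0.11. The adaptors of all cells, napa and napg, were at 7.59 ± 0.09 and 12.62 ± 0.06. Neuroligin nlgn3, a postsynaptic adhesion protein that binds neurexins, read 8.02, 7.77 and 7.90. The adaptor snap91 was at 2.001 ± 0.02 and not detected.

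Syntaxins formed the largest family, with 12 genes and 30 Xl-PSIDs, of which 11 and 22 were detected. Several work in the secretory pathway and in endosomes. Their Xl-PSIDs of highest mean were at 11.71 ± 0.04 for stx5 of the Golgi, 10.97 ± 0.11 for stx6 and 12.21 ± 0.10 for stx16 of the trans-Golgi network, and 10.32 ± 0.11 for stx7 and 10.80 ± 0.07 for stx8 of endosomes. For stx10, also of the trans-Golgi network, the values were 9.65, 9.37 and 9.12, a range of 0.54 beside a median of 0.32 in the general class. Plasma membrane syntaxins differed in detection: stx2 read 6.67, 6.48 and 6.94 and stx4 read 5.04, 5.01 and 4.98. The single Xl-PSID for stx3, the syntaxin of mammalian retinal ribbon synapses, was at 2.49 ± 0.00. For stx1a, a syntaxin of the neuronal bundle, no Xl-PSID with 1 symbol was found. An Xl-PSID for stx18.L, a syntaxin of the endoplasmic reticulum, read 4.50, 4.14 and 6.15 and was not passed by limma (adjusted p = 0.162), while the other 3 for this gene had means from 9.34 to 9.99. The symbol stx19, a syntaxin of epithelial cells in mammals, was borne by 11 Xl-PSIDs, of which 6 were detected. Their means spanned 1.97 to 12.75, and they did not share an order of arrays: stx19.S read 12.84, 12.72 and 12.70 on one, 6.27, 6.06 and 7.30 on another and 9.46, 8.39 and 8.69 on yet another. Whether all 11 measure this gene was not checked, and the platform annotation of some may be wrong. Without stx19, 42 of 55 Xl-PSIDs of the general class were detected.

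**Figure D2:**
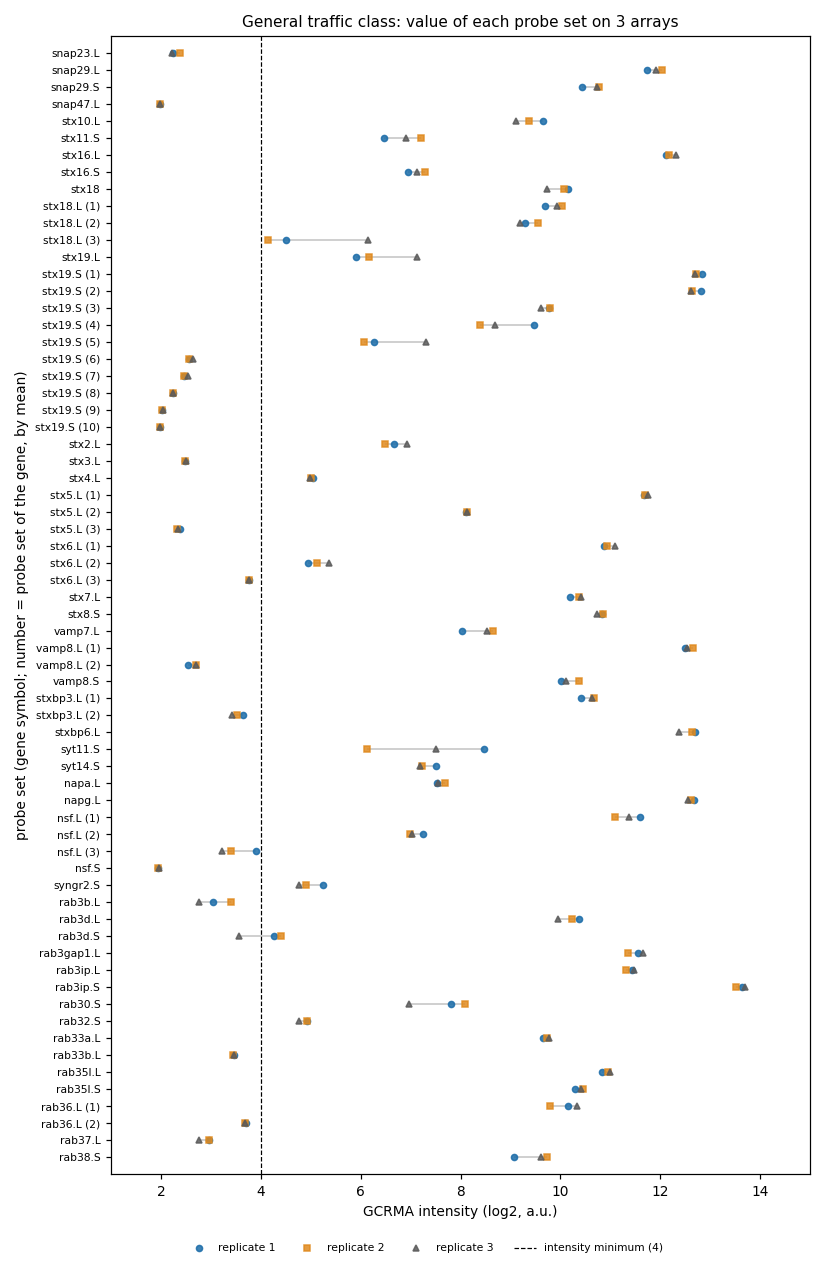
GCRMA intensity (log2, a.u.; horizontal axis) of each Xl-PSID of the general traffic class on each of the 3 arrays, with circles, squares and triangles for replicates 1, 2 and 3 and a dashed line at the intensity minimum of 4. For most genes the 3 symbols lie close together, and syt11, an Xl-PSID for stx18.L and several for stx19 are spread out.

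Proteins that bind syntaxin were detected for both genes measured. The Munc18 protein stxbp3, which serves exocytosis outside neurons, read 10.41, 10.67 and 10.63, with a second Xl-PSID at 3.54 ± 0.11. The syntaxin binding protein stxbp6 (amisyn) was at 12.57 ± 0.18. No Xl-PSID with 1 symbol was found for 25 of 54 core names of the release machinery that were looked up, among them sv2a, sv2b and sv2c, cplx2, rims1 and syt2. Of the 29 names that were matched, 22 were detected, beside 80.2% of all genes.

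Genes with several Xl-PSIDs showed how far the call depends on the probes. Of 22 such genes, 11 had Xl-PSIDs on both sides of the minimum, 4 in the synaptic class (vamp1, vamp2, syn1 and syn2) and 7 in the general class (nsf, vamp8, stxbp3, rab36, stx5, stx6 and stx19). Only 33 of the 54 genes were detected when every Xl-PSID of a gene had to reach 4. The matching shares over all genes were not counted, so neither count is read as particular to these genes. Both homeologs were measured for 16 genes. Both were detected for 12, L alone for nsf, S alone for syn1 and syn2, and neither for syngr1. A mean within 0.5 of the minimum was found for 7 Xl-PSIDs. Of these, syn1.S (4.13) and rab3d.S (4.08) lay just above it. Those for syn2.S (3.71), nsf.L (3.50), rab36.L (3.69), stxbp3.L (3.54) and stx6.L (3.76) lay just below it, and another Xl-PSID of each of these 5 genes was detected.

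The pools were then compared within each detected Xl-PSID. Detected synaptic members read highest on replicate 1 and lowest on replicate 3 for 14 of 20 Xl-PSIDs (70.0%), an order held by 18.0% of all detected Xl-PSIDs with 1 symbol. Each array was also set against the average of the remaining arrays, and the median difference was 0.56 on replicate 1, 0.03 on replicate 2 and -0.58 on replicate 3, against 0.01, 0.03 and -0.03 over all detected Xl-PSIDs with 1 symbol. The 14 include syn1.S, which reached a mean of 4 only through replicate 1, the array on which it is highest. Without syn1 the order was held by 13 of 19, with medians of 0.48, 0.06 and -0.54. The 20 Xl-PSIDs are not independent, since they stand for 13 genes. Read as 1 Xl-PSID of highest mean per gene, 8 of 13 had this order, with medians of 0.48, 0.06 and -0.54. Each pool was measured on 1 array, so a difference between pools has no replicate check and was given no test. In bulk tissue, fewer cells of a type and less RNA per cell cannot be told apart.

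For 17 of the 20 Xl-PSIDs replicate 1 was the highest array, which fixes most of the counts against each other array in advance. Replicate 1 was above replicate 2 for 18 of the 20 Xl-PSIDs, beside 47.1% of all detected ones with 1 symbol, and above replicate 3 for 18, beside 54.0%. The difference between replicates 1 and 3 ranged from -0.07 for napb to 2.35 for sncg.L once syn1.S was left out, with a median of 0.68 over the other 19. It was 1 or more for 7 of these, beside 2.30% of all detected ones with 1 symbol, and they stood for sncg (L and S), syt4, syp.S, cplx1 and both Xl-PSIDs of snap25.S. The Xl-PSIDs outside this order were those for rab3a, nlgn3 and syn2.S, highest on replicate 1 and lowest on replicate 2, and those for napb and vamp1, which were not highest on replicate 1 and had ranges of 0.11 to 0.18. For snap25, sncb, sncg, syp and vamp2 the L and S homeologs shared the order.

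General traffic members did not show it. The order was found for 10 of 48 detected Xl-PSIDs (20.8%), near the 18.0% of all, and the medians were -0.03, 0.02 and 0.04 on replicates 1, 2 and 3. Replicate 1 was above replicate 3 for 20 of 48 and never by 1 or more, and this difference ranged from -1.65 for stx18.L to 0.96 for syt11. A range over the arrays of 1 or more was found for 14 of 68 detected members, beside 7.22% of all detected Xl-PSIDs with 1 symbol. These were 8 of 20 in the synaptic class, syn1.S included, and 6 of 48 in the general class, 3 of which were for stx19. The median range was 0.81 in the synaptic and 0.32 in the general class. The difference between the classes was not tested, since a neuron list on these arrays was already known to have this order when the classes were drawn up.

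**Figure D3:**
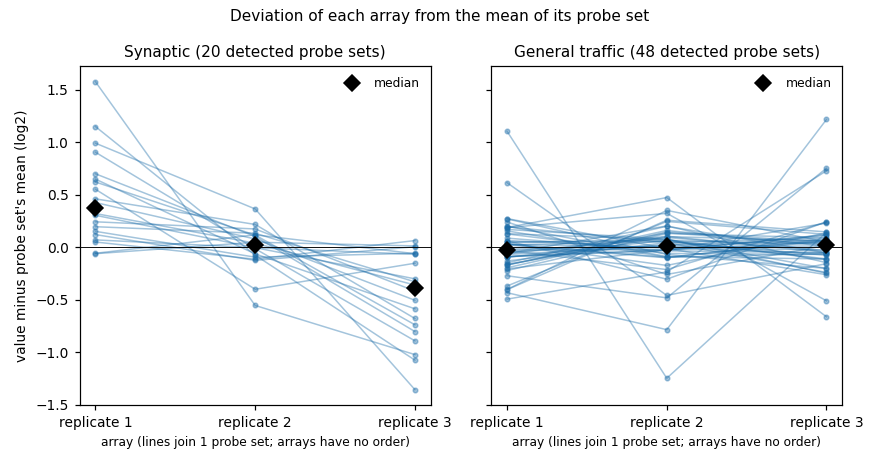
Value of each array minus the mean of the Xl-PSID (log2; vertical axis) for the detected Xl-PSIDs of the synaptic class (left, 20) and the general traffic class (right, 48), with 1 line per Xl-PSID and diamonds at the median. Most synaptic lines lie above 0 on replicate 1 and below 0 on replicate 3, while general traffic lines lie on both sides of 0 on every array.

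Other steps of transmission were read from further gene lists. Counts of detected genes in these lists and in the marker lists below stand beside 80.2% of all genes. Likewise, counts of Xl-PSIDs in the order of the synaptic class stand beside 18.0% of all detected ones with 1 symbol. A list named for postsynaptic scaffolds, which hold receptors in place, had 13 of 16 measured genes detected. Its detected genes also include kinases (camk2b, camk2d and camk2g), secreted cbln1 and receptor phosphatases (ptprd, ptprf and ptprs), which are no scaffolds. Of its 27 detected Xl-PSIDs, 17 had the order of the synaptic class, with medians of 0.51 on replicate 1 and -0.38 on replicate 3. These 27 stand for 13 genes, so they are not independent. On the Xl-PSID of highest mean of each detected gene, only camk2g, gphn, grip1, homer3, pick1 and shank2 had this order. On theirs, cbln1, camk2d, grip2, ptprf and ptprs were lower on replicate 1 than on replicate 3. The largest range on these Xl-PSIDs was that of grip1, a scaffold of glutamate receptors, which read 6.26, 5.34 and 5.02. The genes camk2a, homer1 and homer2 were not detected. Endocytosis and recycling genes, which retrieve vesicle membrane, had 22 of 24 detected but smaller medians (0.14 and -0.14), with 11 of 38 Xl-PSIDs in this order. The clathrin heavy chain cltc read 14.24, 14.11 and 14.24, and dnm2 and itsn2 were not detected. Transmitter loading genes had 14 of 18 detected and medians of -0.01 and -0.02. All detected ones besides slc17a7 encode proton pump subunits or an accessory protein of the pump, so these medians mostly describe the pump. Within that list the proton pump subunit atp6v0c was nearly level at 13.98, 13.99 and 14.01, whereas the vesicular glutamate transporter slc17a7 read 9.45, 7.72 and 6.84. The vesicular transporters for monoamines (slc18a1 and slc18a2) and for inhibitory transmitters (slc32a1) were not detected.

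Ribbon and active zone genes were poorly covered, with 10 of 37 names measured and 6 detected. The detected genes were cadps, caps, cask, ctbp1, lin7c and ppfia1, so the medians describe these and not ribbons or active zones as a whole. Their medians were 0.01 on replicate 1 and -0.17 on replicate 3, with 2 of 9 detected Xl-PSIDs in the order of the synaptic class. Of these cadps, which primes vesicles of the dense core type and had the largest range, read 8.48, 7.23 and 6.71. The scaffolds cask and lin7c were highest on replicate 2, and the calcium channel subunits cacna1a and cacnb3, the Rab3 effector rph3a and the adaptor apba2 were not detected. That list also holds caps, which encodes calcyphosine and no release factor. SNAREs and tethers of the Golgi, endoplasmic reticulum and exocyst were detected for 26 of 26 genes, with 6 of 35 Xl-PSIDs in the order of the synaptic class and medians of -0.04 and -0.01.

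**Figure D4:**
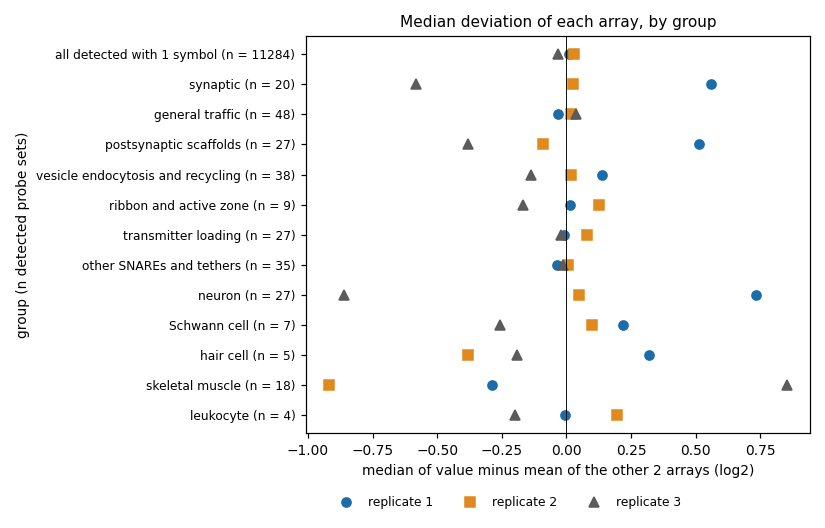
Median over detected Xl-PSIDs of each array's difference from the average of the remaining arrays (log2; horizontal axis) for the synaptic and general traffic classes, the other gene lists and all detected Xl-PSIDs with 1 symbol, with circles, squares and triangles for replicates 1, 2 and 3. Replicates 1 and 3 are furthest apart, with replicate 1 higher, for the neuron, synaptic and postsynaptic lists, and skeletal muscle is highest on replicate 3.

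Of the cell type markers, the neuron list had medians most like those of the synaptic class. The order of a neuron list on these arrays was known when the classes were drawn up, so this likeness is only a description. Of 19 measured neuron markers 17 were detected, all but elavl3 and map2, and their medians were 0.73 on replicate 1 and -0.86 on replicate 3, with 15 of 27 Xl-PSIDs in the order of the synaptic class. On the Xl-PSID of highest mean of each marker, the intermediate filament ina had the largest range and read 8.85, 7.78 and 6.12, whereas the secretory granule chaperone scg5 had the highest mean and read 12.87, 13.05 and 13.02. On these Xl-PSIDs gap43, chga and mapt were also lower on replicate 1 than on replicate 3, by less than 0.2. Hair cell markers had medians of 0.32, -0.38 and -0.19 on replicates 1, 2 and 3, with 3 of 5 Xl-PSIDs in the order. Schwann cell markers had medians of 0.22, 0.10 and -0.26, with 2 of 7 in the order. Skeletal muscle differed from the neuron list, with medians of -0.29 on replicate 1 and 0.85 on replicate 3 and 2 of 18 in the order. Of these 18 Xl-PSIDs, 13 were highest on replicate 3 and 5 on replicate 1. By the Xl-PSID of highest mean, myh4 (9.22, 6.70 and 6.62), myh8 (7.87, 3.86 and 5.22) and atp2a1 were highest on replicate 1. Leukocyte markers were highest on replicate 2 for 4 of 4. Summed over the Xl-PSID of highest mean of each measured marker, on the log2 scale, the neuron list came to 190.6, 180.2 and 170.7 on replicates 1, 2 and 3. Schwann cell markers (4 of 5 detected, egr2 at the floor) came to 48.7, 47.0 and 46.8, hair cell markers (4 of 4) to 46.3, 43.5 and 43.7, skeletal muscle markers (9 of 9) to 81.0, 73.8 and 85.6 and leukocyte markers (3 of 4, ptprc at the floor) to 28.0, 28.4 and 27.5. The hair cell marker calb1, which neurons also express, read 9.35, 7.58 and 6.96. Its range was 2.38, beside 0.43 for myo6, 0.64 for pvalb and 0.34 for ush1c. The fall of the hair cell sum from replicate 1 to replicate 3 thus rests mostly on calb1. In the same list pvalb read 12.22, 11.91 and 12.54, highest on replicate 3. Its order of arrays was also that of acta1, ckm, mylpf and tnnc2 in the skeletal muscle list, whose other markers had other orders. Which cells the pvalb values came from was not tested. The balance of transcript ends was read from control transcripts as the 5′ probe set minus the 3′ probe set. It was lowest on replicate 3, at -3.13, -3.0 and -3.87 for ef1a and -1.13, -1.04 and -1.36 for gapdh. RNA quality itself was not measured here, and the paper reports that all replicates met its minimum RNA integrity number. The part of the 5′ to 3′ differences in the order of the synaptic class was not tested.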

How the data were processed

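The authors pooled inner ear RNA per replicate, amplified and labelled it with the Ovation system (NuGEN), hybridised it to GeneChip arrays (Affymetrix) and deposited GCRMA values on the log2 scale made in JMP Genomics. Whether the 3 arrays were normalized alone or with larval arrays was not given in the sources used here. Unexpressed transcripts read near 2 after GCRMA, and this floor compresses differences there. Scanner files were not used, so background correction could not be varied.

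Of 32635 probe sets, 96 controls served only for 5′ to 3′ differences. Symbols came from the platform annotation: 15495 probe sets had 1, 279 had several (3 of them bearing a member name) and 16765 had none, and a gene not detected may have other probe sets that carry no symbol. A RefSeq table (Xenopus_laevis_v10.1), used for names only, held 96 of the 97 member symbols. Of the members, 8 probe sets are of a class that can match several transcripts.

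Detection was a mean of 4 or more, and limma 3.58.1 (R 4.3.3) tested a mean above 4 over 32539 probe sets, one-sided, with Benjamini-Hochberg adjustment at 0.05. The limma test was also run on simulated data in which each probe set kept its own SD. Probe sets moved to 4 there could carry the small SDs of the floor, so no support for the calls is drawn from it. Counts, medians and figures used Python 3.11.15, pandas 2.3.3 and matplotlib 3.10.9. Members, classes, tests and the 10 other lists (235 entries) were chosen with earlier results of these data known. The genes named are core release genes, the 10 members of largest range, those within 0.5 of the minimum, those whose probe sets differ on detection, and for lists examples of highest or lowest mean or largest range. Further members (snap91, syt14, stxbp6, the Rab names, other syntaxins, vamp7, gap43, chga, mapt, cask and lin7c) were chosen after their values were seen. Alternatives were other minimums, quantile normalization, an intensity trend, other probe set rules and leaving out each replicate.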

Additional observations from a re-analysis of the deposited data

How the results depend on the processing

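Among members, limma passed 65 Xl-PSIDs in the main test, 72, 61 and 58 at minimums of 3, 5 and 6, and 64 to 65 with a replicate left out. The limma call was the same in every alternative for 82 of 97 Xl-PSIDs, and in those that kept the minimum of 4 it changed for 3 (syt4.L, syt11.S and rab3d.S). By mean, 66 to 68 were detected with a replicate left out. With a replicate left out, each median is that of the difference between the remaining pair of arrays, so it is no separate check. The medians of the synaptic class then kept their sign on replicates 1 (0.30 to 0.69) and 3 (-0.69 to -0.47). That on replicate 2 ranged from -0.30 to 0.47 and was -0.0059 without snap25 and sncg, an alternative added after seeing the data, which gave 0.36 and -0.49 on replicates 1 and 3. With 1 Xl-PSID per gene the order was held by 8 of 13. Medians of the general class lay so near 0 that their sign changed: at a minimum of 3 to 0.0082 on replicate 1 and -0.002 on replicate 2, with 1 Xl-PSID per gene to 0.0352 on replicate 1, and with a replicate left out to between -0.0317 and 0.043 on replicate 3. A range of 0.5 or more was found for 27 members and of 1.5 or more for 7, and the shares of all detected Xl-PSIDs at these ranges were not counted. No paired analysis was possible because all samples form 1 group. With 1 array per pool, no difference between pools could be tested, and values near the floor limit what can be said of low members.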
